A study of Mus musculus with 6 samples.

Results

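Expression of 8 genes that respond to blood flow or take part in sensing it was described in freshly isolated endothelial cells from the brains of mouse pups, taken at postnatal day 7. The genes were those of the transcription factors Klf2 and Klf4, the endothelial nitric oxide synthase Nos3, the flow sensors Piezo1 and Pecam1, and Slc9a3r2, Sema7a and Cd59a, which stand in lists of flow-responsive endothelial genes. They were found by symbol in the gene count table, where all 8 were present among 55450 genes, and all 8 passed the filter on low counts that left 19549 genes for testing. Both groups of mice carried Cdh5(PAC)-CreERT2, a Cre recombinase that is expressed from the endothelial Cdh5 promoter and becomes active with tamoxifen, and tamoxifen was given to all pups, at 100 µg on each of days 1 and 2 after birth. The control group was Rbpjflox/WT and so could also lose 1 copy of Rbpj, and the mutant group was Rbpjflox/flox. Rbpj encodes the factor that carries Notch signals to DNA. Pups were of both sexes and of mixed background (FVB/N and C57BL/6), the cells were selected with CD31 beads, and RNA pooled over many pups was sequenced as 3 libraries per group. Whether a group's libraries stem from 1 pool or several is not stated, so each p-value rests on a spread among libraries that may be technical.

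Laminar shear stress on endothelium activates the kinase cascade of MEKK3, MEK5 and ERK5, which acts through MEF2 factors to raise Klf2 and Klf4. These zinc finger factors in turn raise Nos3 and other genes of quiescent endothelium and restrain inflammatory and angiogenic genes. The cation channel PIEZO1 and the junctional complex of PECAM1, VE-cadherin and VEGF receptor 2 are upstream sensors of flow, and the CCM proteins hold MEKK3 signalling back. In brain, excess Klf2 and Klf4 is known from cerebral cavernous malformations.

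Sequence upstream of the 3 flow-responsive genes with a lower level in the mutant and an entry in the RefSeq promoter table (GRCm38.p6) is shown because the shear pathway is known to reach Klf2 through a MEF2 site in its promoter. The table matched 6 of the 8 genes, and Nos3 and Pecam1 were not matched. Bases inside the GENCODE gene were left off, so Klf2 is chr8:72318812-72319032 on the plus strand (221 bases), Klf4 is chr4:55532476-55532725 on the minus strand (250 bases) and Slc9a3r2 is chr17:24650328-24650555 on the minus strand (228 bases). Capitals mark a match to the MEF2 motif in Klf2 and a match to CACCC, the core of sites bound by Krüppel-like factors, in Slc9a3r2, where it lies on the other strand.
Klf2: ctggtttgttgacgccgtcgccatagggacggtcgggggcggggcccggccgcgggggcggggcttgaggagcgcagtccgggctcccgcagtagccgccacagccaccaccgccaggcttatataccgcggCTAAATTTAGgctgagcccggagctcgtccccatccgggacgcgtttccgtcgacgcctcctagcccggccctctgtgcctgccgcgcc
Klf4: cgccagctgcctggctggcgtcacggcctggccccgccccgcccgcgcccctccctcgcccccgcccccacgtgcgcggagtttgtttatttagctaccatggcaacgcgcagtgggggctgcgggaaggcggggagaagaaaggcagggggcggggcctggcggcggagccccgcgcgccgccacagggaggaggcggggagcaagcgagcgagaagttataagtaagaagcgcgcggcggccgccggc
Slc9a3r2: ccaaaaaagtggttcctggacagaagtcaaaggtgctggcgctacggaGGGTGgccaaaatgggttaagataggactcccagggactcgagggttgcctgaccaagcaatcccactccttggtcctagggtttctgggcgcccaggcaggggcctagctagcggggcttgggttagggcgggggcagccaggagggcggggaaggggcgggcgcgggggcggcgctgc
The Klf2 window held 1 match to the MEF2 motif, CTAAATTTAG, from 118 to 109 bases before the RefSeq start of transcription. This motif occurred on either strand in 2.61% of all 32851 promoter windows of that length, and it was not present in the windows of the other 5 matched genes. CACCC is common, with 48.9% of windows of the Slc9a3r2 length holding it on either strand. Sema7a and Piezo1 held 1 match each and Cd59a held 3. GTGGGAA, the letters of a site for RBPJ, had no match in the 6 windows, against 5.42% of all windows of 250 bases. The motifs searched do not overlap each other in these windows. A match is a description of the letters and says nothing of binding in these cells.

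Of the 8 genes, Klf2, Klf4, Nos3 and Slc9a3r2 were lower in the mutant libraries, Pecam1 was higher, and Piezo1, Sema7a and Cd59a were not called. A gene was called when its adjusted p (edgeR's quasi-likelihood test, Benjamini-Hochberg over all genes) was under 0.05. That rule called 14.4% of all tested genes, with 6.83% lower (1335 genes) and 7.56% higher (1477 genes) in the mutant. With scaling to endothelial genes the split was 1576 lower and 1001 higher. In 7 of the 8 genes, all but Cd59a, the 3 control and 3 mutant libraries did not overlap in CPM, and this held for 34.1% of all tested genes. Libraries of enriched cells cannot tell fewer cells of a type from less RNA per cell, and this applies to every difference given here.

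**Figure D1:**
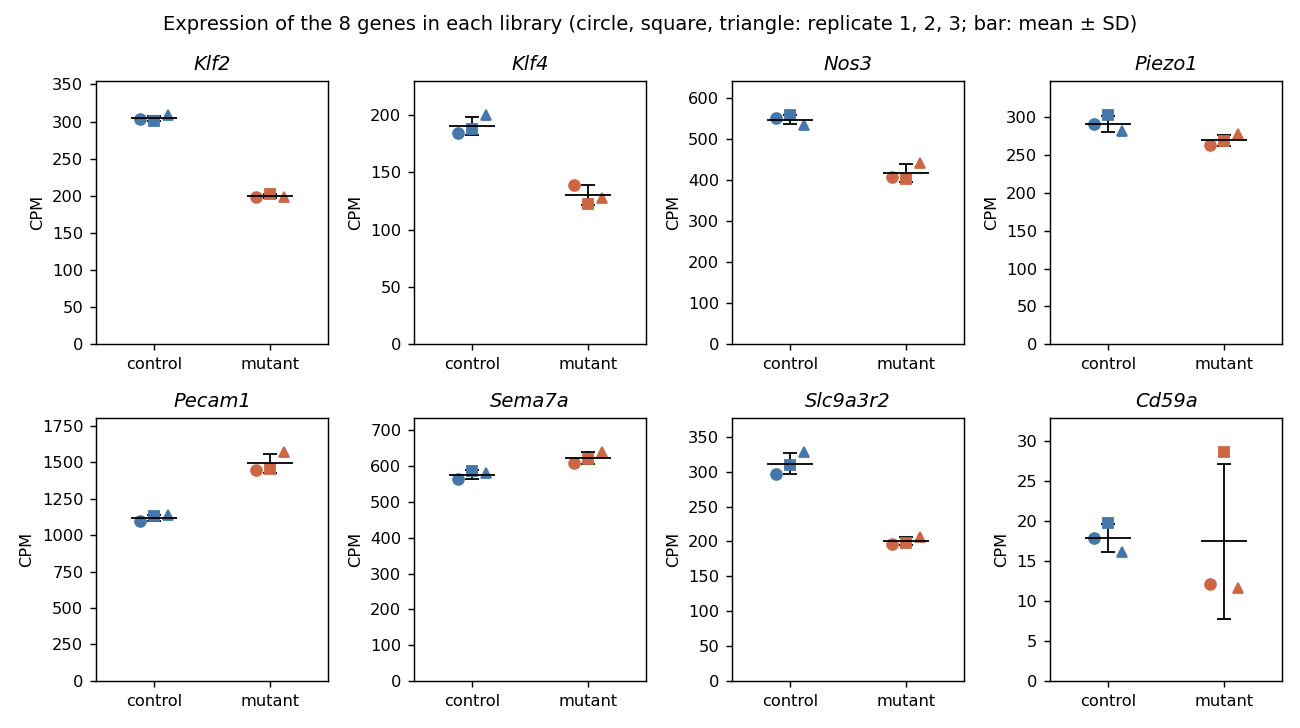
CPM (counts scaled to library size) of each of the 8 genes in the 3 control libraries (blue) and 3 mutant libraries (orange), with the mean and SD as a bar; every axis starts at 0. Klf2, Klf4, Nos3 and Slc9a3r2 are lower in every mutant library, Pecam1 is higher in every one, and in Cd59a mutant replicate 2 stands at 28.6 CPM, above all other libraries.

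Total counts ran from 75744913 to 82092461 per library, and low counts piled up at multiples of 4, so about 4 counts stand for 1 read pair. On that basis the lowest value among the 8 genes was about 215 read pairs, for Cd59a in mutant replicate 3, and the other 7 genes had at least 2366 in every library. Control libraries lay between -41.2 and -37.1 on the first principal component and mutant libraries between 37.1 and 40.7, while mutant replicate 3 stood apart on the second, at -55.6 against 31.2 and 26.2 for the other two. Without mutant replicate 3 the log2 fold changes of the 5 called genes were -0.60 for Klf2, -0.54 for Klf4, -0.43 for Nos3, -0.66 for Slc9a3r2 and 0.38 for Pecam1, and all 5 were still called. Rbpj itself went from 54.1 ± 0.294 CPM to 46.6 ± 1.34 CPM (SD, n = 3 each), a log2 fold change of -0.21 ± 0.042 (SE) with an adjusted p of 0.0129. The count covers the whole gene and the deleted part was not counted separately, so the extent of deletion was not tested. The adjusted p of Rbpj was 0.0571, 0.0543 and 0.051 without control replicate 1, control replicate 2 or mutant replicate 2. All 20 pan-endothelial genes of the list used here were detected, with a summed level of 17072 to 17561 CPM in control and 17715 to 19065 CPM in mutant libraries. Of these genes, which also set the endothelial scaling, 6 (30.0%) were higher and 4 (20.0%) lower, against 7.56% and 6.83% of all genes. Transcripts of other cells were present as well. Pericyte and smooth muscle markers summed to 4232 to 4347 CPM in control and 4320 to 4423 CPM in mutant libraries. Of these 15 markers 4 (26.7%) were higher and 6 (40.0%) lower. Microglia and macrophage markers went from 1816 to 1861 CPM to 1431 to 1478 CPM, with 8 of 14 (57.1%) lower. Erythroid genes went from 6974 to 7180 CPM to 4666 to 4961 CPM, with 5 of 8 (62.5%) lower. Fibroblast markers summed to 908 to 1019 CPM in control and 626 to 807 CPM in mutant libraries, with 3 of 10 (30.0%) lower. Astrocyte markers summed to 509 to 559 CPM and 288 to 418 CPM, with 2 of 10 (20.0%) lower. Of the genes of these lists in the table, none was at 0 in every library, and the part of other cells in the results below was not tested.

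Klf2 (ENSMUSG00000055148; chromosome 8, 72319033 to 72321656, plus strand, GRCm38) encodes the zinc finger factor that is the best-known target of laminar flow. It had 303, 301 and 308 CPM in control and 198, 203 and 198 CPM in mutant libraries. The 3 values of each group lay within a few CPM of each other, and the gap between the groups was far wider than the spread within them. The log2 fold change was -0.61 ± 0.030 (SE, adjusted p = 2.39e-05), so Klf2 fell by 34.4%, and it ranked 72nd of all 19549 genes by p. None of its 50-base stretches is found in the transcripts of another gene.

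Klf4 (ENSMUSG00000003032; chromosome 4, 55527143 to 55532466, minus strand) encodes a close relative with overlapping targets. Its levels were 184, 188 and 200 CPM in control and 139, 122 and 128 CPM in mutant libraries. The groups were again apart, with a wider spread among the mutant libraries than Klf2 had. Klf4 fell by 31.9%, a log2 fold change of -0.55 ± 0.056 (adjusted p = 0.000606). The log2 ratio of Klf2 to Klf4 was 0.68 ± 0.047 in control and 0.62 ± 0.11 in mutant libraries (SD, n = 3 each). This difference of -0.05 ± 0.069 (SE) was within the spread of the libraries, with p = 0.7 in an exact two-sided permutation test, whose smallest possible value with 3 against 3 libraries is 0.1. Both genes also respond to tissue dissociation as immediate early genes. Of 24 dissociation and immediate early genes tested, 9 (37.5%) were lower and 2 (8.33%) higher in the same libraries, against 6.83% and 7.56% of all genes. The summed level of these 24 was 4896 to 4946 CPM in control and 4114 to 4449 CPM in mutant libraries. The heat shock genes Hspa1a and Hspa1b, named after their values were seen, had log2 fold changes of -1.10 and -1.15 and Fos one of -0.30, while Klf6 was higher. Whether these shifts and those of Klf2 and Klf4 share a source was not tested.

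The Krüppel-like factor family did not move as one. Of 15 members tested, 5 (33.3%) were lower and 1 (6.67%) higher, against 6.83% and 7.56% of all genes. The family median log2 fold change was -0.15, against -0.0092 over all genes. The 13 members other than Klf2 and Klf4 had 3 lower, 1 higher and a median of 0.08. Beyond Klf2 and Klf4, the lower ones were Klf11 (-0.30 ± 0.052, adjusted p = 0.00809), Klf3 (-0.24 ± 0.043) and Klf13 (-0.15 ± 0.029). Klf13 had an adjusted p of 0.057, 0.0669 and 0.0706 without control replicate 1, control replicate 2 or mutant replicate 2. Klf6, an injury-responsive family member, rose from 226 ± 4.68 CPM to 282 ± 4.63 CPM (0.32 ± 0.032, adjusted p = 0.000579). Per exon length, Klf2 was the most abundant family member in control libraries, at 457 ± 4.19 TPM (a level scaled by exon length), followed by Klf4 at 173 ± 4.29 TPM and Klf6 at 143 TPM. In mutant libraries Klf2 remained first at 303 ± 5.16 TPM, while Klf6 at 180 TPM lay above Klf4 at 120 ± 8.85 TPM. The log2 ratio of Klf6 to Klf2 in CPM, chosen after the values were seen, went from -0.43 ± 0.046 to 0.50 ± 0.011 (SD), with the 3 libraries of each group apart. Its exact two-sided permutation p of 0.1, the smallest this design allows, followed from that choice and adds no support.

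Of 15 genes of the MEKK3-ERK5-MEF2 cascade and the CCM complex, which lie between the flow sensors and Klf2, none was higher and 2, Hdac5 and Heg1, were lower, with a median of 0.03. That is 13.3% of the list, near the 14.4% of all genes called. Map3k3, which encodes MEKK3, had 149 ± 4.45 and 152 ± 7.61 CPM. Mapk7, which encodes ERK5, had 40.4 ± 7.90 and 35.4 ± 2.34 CPM. Mef2c, a MEF2 factor, varied widely within each group, with 17.8, 20.1 and 37.7 CPM in control and 22.6, 46.9 and 29.2 CPM in mutant libraries. The CCM genes Krit1, Ccm2 and Pdcd10 had log2 fold changes of 0.03 ± 0.075, 0.10 ± 0.046 and 0.10 ± 0.055, and none of them was called. Heg1, the transmembrane partner of the CCM complex, had an adjusted p of 0.0496 that rose to between 0.0523 and 0.165 with any 1 library left out. Hdac5, a repressor of MEF2, had an adjusted p of 0.0173, and of 0.0793, 0.0766, 0.0637 and 0.0732 without control replicate 1 or 2 or mutant replicate 1 or 2. Without control replicate 1, Mapk7 was called lower (-0.34, adjusted p = 0.0344).

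Nos3 (ENSMUSG00000028978; chromosome 5, 24364810 to 24384474, plus strand) makes nitric oxide in endothelium, which relaxes smooth muscle. It had 551, 558 and 535 CPM in control and 409, 403 and 442 CPM in mutant libraries. Every mutant library was below every control library, with mutant replicate 3 nearest to the controls. Nos3 fell by 23.7%, a log2 fold change of -0.39 ± 0.043 (adjusted p = 0.000852). The log2 ratio of Nos3 to Klf2 went from 0.85 ± 0.048 to 1.07 ± 0.085 (SD, n = 3 each), and it was higher in each mutant library than in any control library. That difference of 0.22 ± 0.056 (SE) had an exact two-sided permutation p of 0.1, the smallest possible. Adjusted over the 5 ratios computed here, it was 0.125. That set includes the ratios chosen after the values were seen, so the adjusted value is no fair measure of this difference. Exons of Nos3 overlap Atg9b and Gm15587 on the opposite strand, which share 20.0% of its 50-base stretches, and the sources used here do not say whether counting used the strand. Atg9b had 0.57 to 1.03 CPM and Gm15587 1.67 to 2.53 CPM over the 6 libraries, far below Nos3.

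Partners of nitric oxide synthesis moved both ways: of 30 genes tested, 5 (16.7%) were higher and 5 (16.7%), with Nos3, lower. Over all genes 7.56% were higher and 6.83% lower, and the median of this list was 0.02. Nos2, the inducible synthase, rose from 71.0 ± 2.88 CPM to 112 ± 3.25 CPM (0.66 ± 0.044, adjusted p = 8.72e-05). Nostrin, which draws the NOS3 protein into vesicles, rose from 88.8 ± 2.73 CPM to 138 ± 6.35 CPM (0.64 ± 0.046, adjusted p = 0.000119). The calmodulin gene Calm2 was higher by 0.22. Arg1, an arginase that competes for the substrate arginine, was higher too but low, at 0.54 and 2.36 CPM. On the lower side, Nos1, the neuronal synthase, had a log2 fold change of -0.77, the arginine-recycling enzyme gene Ass1 one of -0.56 and the cGMP-dependent kinase gene Prkg1 one of -0.54. Slc7a1, which carries arginine into the cell, was lower by a log2 fold change of -0.21 and the chaperone gene Hsp90ab1 higher by 0.12, the smallest changes called in this list. Leaving out any 1 library except mutant replicate 3 raised the adjusted p of Slc7a1 to between 0.0756 and 0.149 and that of Hsp90ab1 to between 0.0661 and 0.166. Cav1, whose protein caveolin-1 binds and restrains NOS3, had 101, 42.4 and 87.2 CPM in control and 126, 114 and 141 CPM in mutant libraries. Control replicate 2 was far below the other libraries, and Cav1 was not called (0.72 ± 0.358, adjusted p = 0.298). Without control replicate 2 the log2 fold change was 0.44 (adjusted p = 0.0741). Gch1, the first enzyme for the NOS cofactor tetrahydrobiopterin, had 26.5 ± 1.77 and 24.7 ± 1.41 CPM. Several called genes were chosen for naming here after their values were seen: Nos1, Arg1, Ass1, Prkg1, Slc7a1 and Hsp90ab1.

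Slc9a3r2 (ENSMUSG00000002504; chromosome 17, 24639286 to 24650327, minus strand) encodes the PDZ scaffold NHERF2, which ties membrane proteins to the actin cortex. It had 297, 309 and 328 CPM in control and 197, 197 and 207 CPM in mutant libraries. The mutant values lay close together and well below the lowest control library. It fell by 35.7%, the largest fall among the 8 genes (-0.64 ± 0.045, adjusted p = 0.000111), though Klf2 at -0.61 was within an SE of it. Its paralog Slc9a3r1, which encodes NHERF1, rose from 53.5 ± 1.79 CPM to 72.4 ± 2.48 CPM (0.44 ± 0.045, adjusted p = 0.00065). The log2 ratio of Slc9a3r1 to Slc9a3r2, chosen after the values were seen, went from -2.54 ± 0.070 to -1.47 ± 0.075 (SD). Its exact two-sided permutation p of 0.1, the smallest possible, followed from that choice and adds no support. Per length, Slc9a3r2 was still the more abundant of the pair in the mutant, at 213 ± 4.23 TPM. Of 8 NHERF and ERM genes tested, 4 (50.0%) were higher and 3 (37.5%) lower, against 7.56% and 6.83% of all genes. Podxl, a sialomucin that NHERF proteins bind, fell from 1097 ± 29.4 CPM to 842 ± 53.6 CPM (-0.38 ± 0.049, adjusted p = 0.00199). Msn, which encodes moesin, the main ERM linker of endothelium, rose by 0.37 ± 0.031, and Sgk1 and Adgrl2 by 0.40 and 0.44. Ezr, which encodes ezrin and was named after its value was seen, was lower (-0.24), with an adjusted p of 0.105, 0.089 and 0.0765 without control replicate 1 or 2 or mutant replicate 2.

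Sema7a (ENSMUSG00000038264; chromosome 9, 57940112 to 57962865, plus strand) encodes a membrane-anchored semaphorin. Its levels were 563, 586 and 581 CPM in control and 608, 620 and 640 CPM in mutant libraries. The groups did not overlap, yet the difference of 0.11 ± 0.033 on the log2 scale missed the threshold (adjusted p = 0.071). In contrast to Klf2, Nos3 and Slc9a3r2, the point estimate was positive. Neither of its receptor genes named here was called: Plxnc1 had 14.5 ± 1.39 and 14.1 ± 2.28 CPM, and the integrin gene Itgb1 had 1222 ± 22.2 and 1312 ± 29.1 CPM (adjusted p = 0.0696). Sema7a was called higher under 3 other settings, with total count scaling, a filter of mean 5 CPM and counts divided by 4, at log2 fold changes of 0.10, 0.11 and 0.12, and Itgb1 was called higher under the same 3 (adjusted p = 0.0359, 0.0401 and 0.0405). With scaling to endothelial genes Sema7a was at 0.053 (adjusted p = 0.32).

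Cd59a (ENSMUSG00000032679; chromosome 2, 104095801 to 104115354, plus strand) encodes the anchored inhibitor of the complement membrane attack complex. It had 17.9, 19.7 and 16.2 CPM in control libraries and 12.2, 28.6 and 11.6 CPM in mutant libraries. Mutant replicate 2 was above every control library and mutant replicates 1 and 3 were below every one. The log2 fold change was -0.04 ± 0.406 (adjusted p = 0.972), an error too wide to show a difference of the size seen in Klf2. Without mutant replicate 2 it was -0.58 (adjusted p = 0.0188), and without mutant replicate 1, mutant replicate 3 or control replicate 2 its sign was positive. Its neighbour and near copy Cd59b shares 3.87% of the 50-base stretches of Cd59a and had 0.51 to 1.19 CPM, so the split of reads between the pair is uncertain but small. Cd55, another membrane regulator of complement at a like CPM, had 19.0 ± 0.807 and 20.9 ± 0.802 CPM and was not called. Among soluble complement regulators, Clu, which encodes clusterin, was lower (-0.44 ± 0.070, adjusted p = 0.00557), as was Vtn, which encodes vitronectin (-0.18 ± 0.031, adjusted p = 0.00705). Vtn is also a pericyte gene and Clu is abundant in astrocytes.

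Piezo1 (ENSMUSG00000014444; chromosome 8, 122481698 to 122551329, minus strand) encodes a channel that opens when flow stretches the membrane. Its levels were 291, 303 and 282 CPM in control and 263, 269 and 278 CPM in mutant libraries. The groups met almost at their edges, control replicate 3 lying just above mutant replicate 3. In TPM the groups overlapped, with control replicate 3 at 76.8 TPM and mutant replicate 3 at 77.7 TPM. The log2 fold change of -0.11 ± 0.039 was not called (adjusted p = 0.108), except with scaling to endothelial genes (-0.17, adjusted p = 0.0339). Exons of Ctu2 on the opposite strand share 22.7% of the 50-base stretches of Piezo1, and Ctu2 had 12.1 to 14.5 CPM over the 6 libraries.

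Piezo2, which encodes the related channel of touch neurons, rose 4.77-fold. It had 13.2, 15.3 and 13.4 CPM in control and 63.8, 70.2 and 65.7 CPM in mutant libraries, each mutant library several times above each control library (2.25 ± 0.074, adjusted p = 4.71e-06). The log2 ratio of Piezo2 to Piezo1, chosen after the values were seen, went from -4.39 ± 0.076 to -2.02 ± 0.075 (SD). Its exact two-sided permutation p of 0.1, the smallest possible, followed from that choice and adds no support. Per length, Piezo1 was still far more abundant in every mutant library, at 75.1 to 77.7 TPM, as the plot of related pairs shows. Of the markers of neurons, which can express Piezo2, 1 of 11 (9.09%) was lower and none higher, against 6.83% and 7.56% of all genes. The summed level of these markers was 209 to 219 CPM in control and 222 to 267 CPM in mutant libraries.

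**Figure D2:**
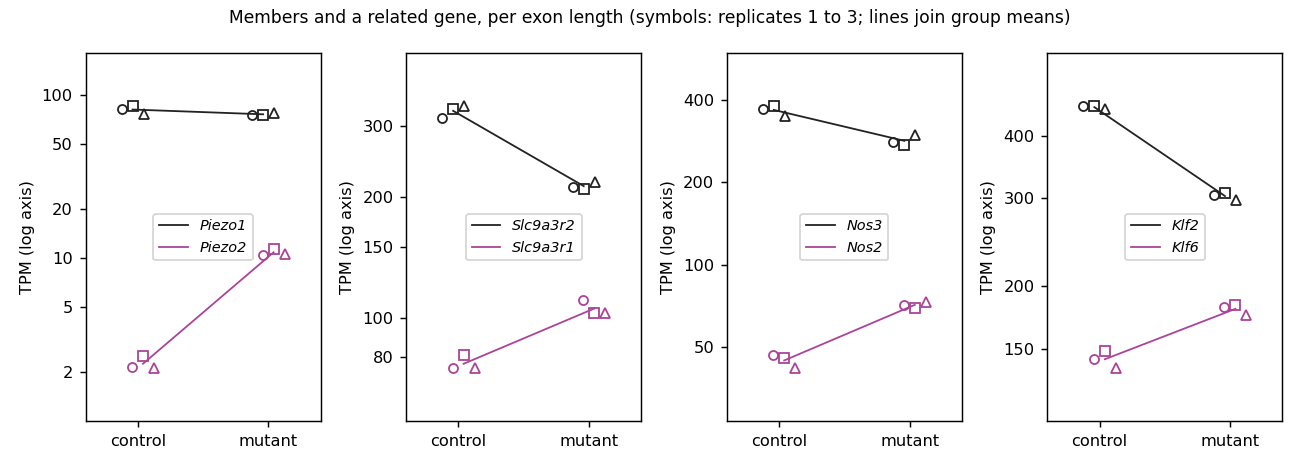
TPM on a log axis, from the deposited counts per exon length, for 4 members (black) and a related gene of each (purple) in the 3 libraries of each group; lines join the group means. Piezo2, Slc9a3r1, Nos2 and Klf6 are higher in every mutant library, while Slc9a3r2, Nos3 and Klf2 are lower and Piezo1 has means of 81.6 and 76.2 TPM. The plotted relatives are a selection. Among the relatives left out, Nos1, Klf4, Klf11, Klf3 and Klf13 were called lower and other Krüppel-like factors were not called.

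Pecam1 (ENSMUSG00000020717; chromosome 11, 106654217 to 106750628, minus strand) encodes CD31, the junctional adhesion molecule by which the cells were selected. It had 1098, 1128 and 1136 CPM in control and 1450, 1457 and 1570 CPM in mutant libraries. All mutant libraries were higher, with mutant replicate 3 the highest. Pecam1 rose by 0.41 ± 0.039 on the log2 scale, or 33.1% (adjusted p = 0.000428). Bead selection on its protein was the same in both groups per the labels, and its part in this difference was not tested. Platelets and leukocytes carry CD31 too. Platelet markers summed to 13.6 to 20.1 CPM in control and 15.1 to 17.2 CPM in mutant libraries, with none of 9 called, and lymphocyte markers to 11.3 to 13.9 CPM and 15.1 to 18.1 CPM, with none of 10 called. Granulocyte markers summed to 69.2 to 83.1 CPM in control and 81.2 to 114 CPM in mutant libraries. Of these 10 markers 1 (10.0%), Ngp, was higher, against 7.56% of all genes. The 2 partners of its complex had smaller differences: Cdh5, VE-cadherin, had 1525 ± 32.4 and 1377 ± 55.0 CPM (-0.15 ± 0.037, adjusted p = 0.038), and Kdr, VEGF receptor 2, had 2141 ± 48.4 and 2372 ± 142 CPM (0.15 ± 0.046, adjusted p = 0.0781). The call of Cdh5 was lost without any 1 library except mutant replicate 3 (adjusted p between 0.0973 and 0.161).

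Among 32 flow sensors and their partners, 14 (43.8%) were higher and 5 (15.6%) lower in the mutant, where 7.56% and 6.83% of all genes were, with a median of 0.18 against -0.0092 over all genes. Of the 20 pan-endothelial genes, which share Cdh5, Kdr and Tie1 with this list, 6 (30.0%) were higher and 4 (20.0%) lower. The sensor list was written with earlier results of these data known. It includes Adm, which ranked 1st of all genes by p. Adm is counted again below among genes that KLF2 lowers or low flow raises, and S1pr1 among genes that KLF2 or laminar flow raises. With scaling to endothelial genes 12 of the 32 were higher and 8 lower. The 14 higher genes compare with 12 to 13 and the 5 lower with 1 to 3 when any 1 library but mutant replicate 3 was left out: 1 without control replicate 1 or mutant replicate 2, 2 without control replicate 3 or mutant replicate 1 and 3 without control replicate 2. Besides Piezo2 and Pecam1, the semaphorin receptor Plxnd1, also a shear sensor, rose from 1033 ± 22.4 CPM to 1626 ± 53.0 CPM (0.65 ± 0.035, adjusted p = 3.33e-05). The integrin subunit gene Itgb3 went from 10.0 ± 0.429 to 24.6 ± 1.17 CPM, 2.45-fold higher (adjusted p = 3.95e-05). Adm, which encodes adrenomedullin, a peptide released under flow, rose by 2.44 ± 0.040, while Calcrl, its receptor, fell by 0.52. Trpv4, a stretch-gated channel, was low and not called (14.3 ± 1.11 and 12.8 ± 1.19 CPM).

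**Figure D3:**
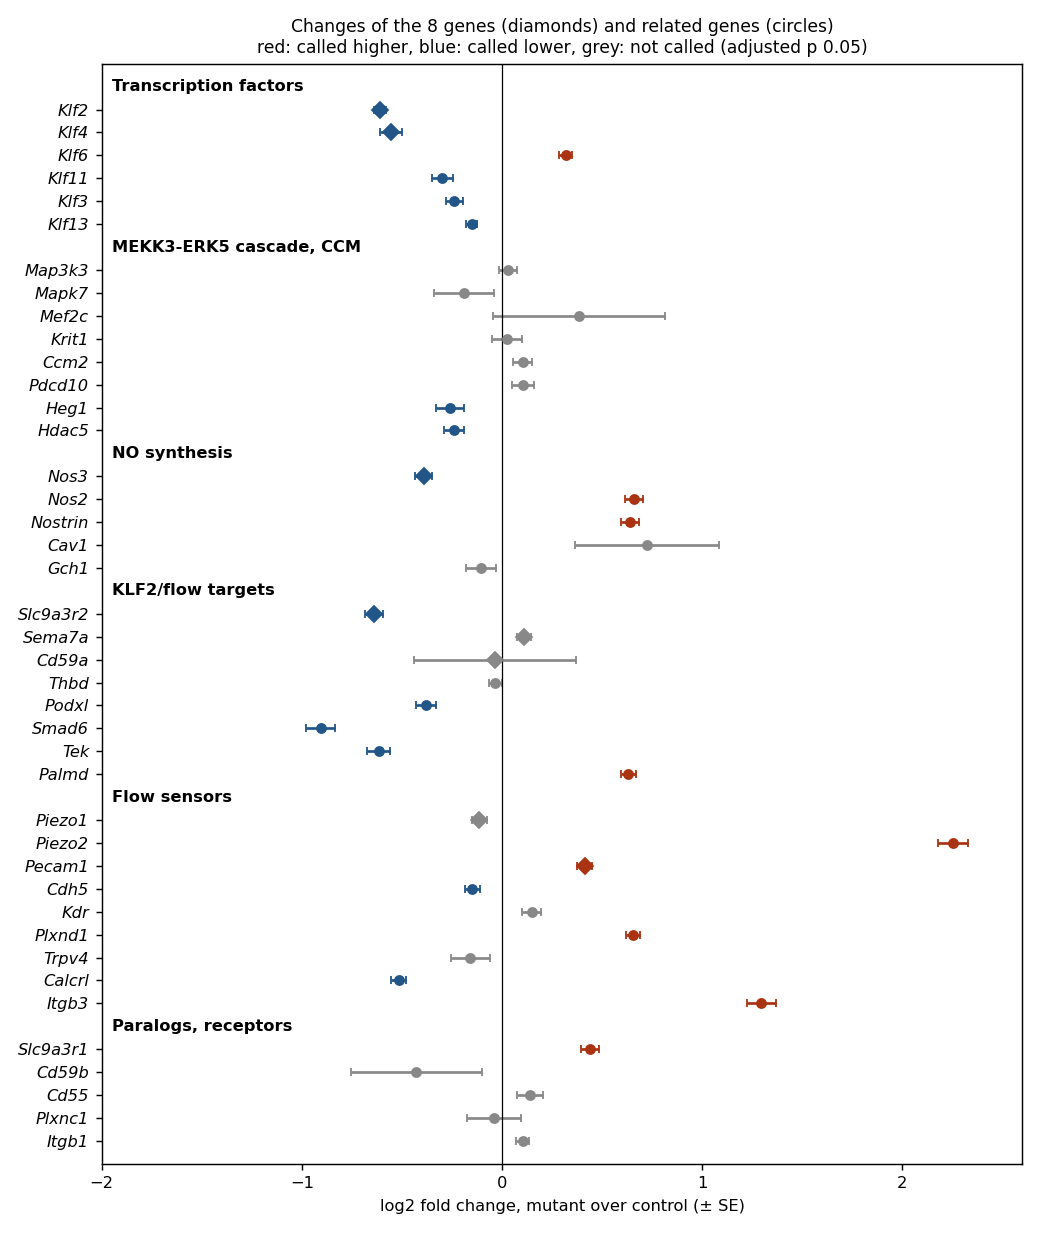
Log2 fold change of mutant over control with its SE for the 8 genes (diamonds) and related genes (circles), grouped by role. Klf2, Klf4, Nos3 and Slc9a3r2 lie left of 0 between -0.64 and -0.39, Pecam1 lies at 0.41, and Piezo2 at 2.25 lies far to the right of Piezo1 at -0.11.

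In the list of genes that KLF2 or laminar flow is known to raise, more were lower than higher in the mutant. The list was written with earlier results of these data known. Of 33 tested, 14 (42.4%) were lower and 4 (12.1%) higher, where 6.83% and 7.56% of all genes were. Of the 20 pan-endothelial genes, which share Tek with this list, 4 (20.0%) were lower and 6 (30.0%) higher. The lower genes include Fgfr3, also an astrocyte marker here, and Dusp1, also in the dissociation list, both named after their values were seen. Leaving out the 4 members among the flow-raised genes, which are Nos3, Slc9a3r2, Sema7a and Cd59a, 12 of 29 were lower and 4 higher, with a median of -0.11. The inhibitory Smad gene Smad6 fell from 27.3 ± 1.42 CPM to 14.6 ± 0.788 CPM (-0.91 ± 0.072, adjusted p = 0.000187) and Tek, the angiopoietin receptor, from 609 ± 9.90 CPM to 397 ± 31.1 CPM (-0.62 ± 0.055, adjusted p = 0.000346). Thbd, thrombomodulin, a classical KLF2 target, had 150 ± 2.33 and 147 ± 2.51 CPM and was not called (-0.03 ± 0.033, adjusted p = 0.58). The higher ones were Palmd (0.63 ± 0.037, adjusted p = 5.22e-05), S1pr1 (0.33), Dusp5 (0.59) and Txnrd1 (0.17). Txnrd1 had an adjusted p of 0.0584, 0.0509, 0.0633 and 0.0618 without control replicate 2 or 3 or mutant replicate 1 or 2, and S1pr1, Dusp5 and Txnrd1 were named after their values were seen.

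Genes that KLF2 lowers or low flow raises changed in both directions, with 7 of 20 higher, 7 lower and a median of -0.02. Over all genes 7.56% were higher and 6.83% lower, so both shares were larger in this list than over all genes. Of the 20 pan-endothelial genes, 6 (30.0%) were higher and 4 (20.0%) lower. Their number higher was thus close to the 7 of 20 in this list. The number lower in the list was 4 without mutant replicate 1, 2 or 3 or control replicate 1. The higher genes with the lowest p were angiogenic ones, Adm, Angpt2 (1.67 ± 0.043) and Apln (1.60 ± 0.044). The lower gene with the lowest p, Vegfc, is angiogenic too. Adhesion genes that KLF2 restrains were among the lower ones, Vcam1 at -0.88 ± 0.052 and Icam1 at -0.36 ± 0.032. Of the inflammatory chemokine genes in the list, Ccl2 was higher and Cxcl1 lower. Vegfc, Vcam1, Icam1, Ccl2 and Cxcl1 were named after their values were seen. Edn1, the vasoconstrictor endothelin-1 and a textbook KLF2-repressed gene, had 70.6 ± 1.32 and 71.6 ± 1.5 CPM (0.02 ± 0.037, adjusted p = 0.802).

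**Figure D4:**
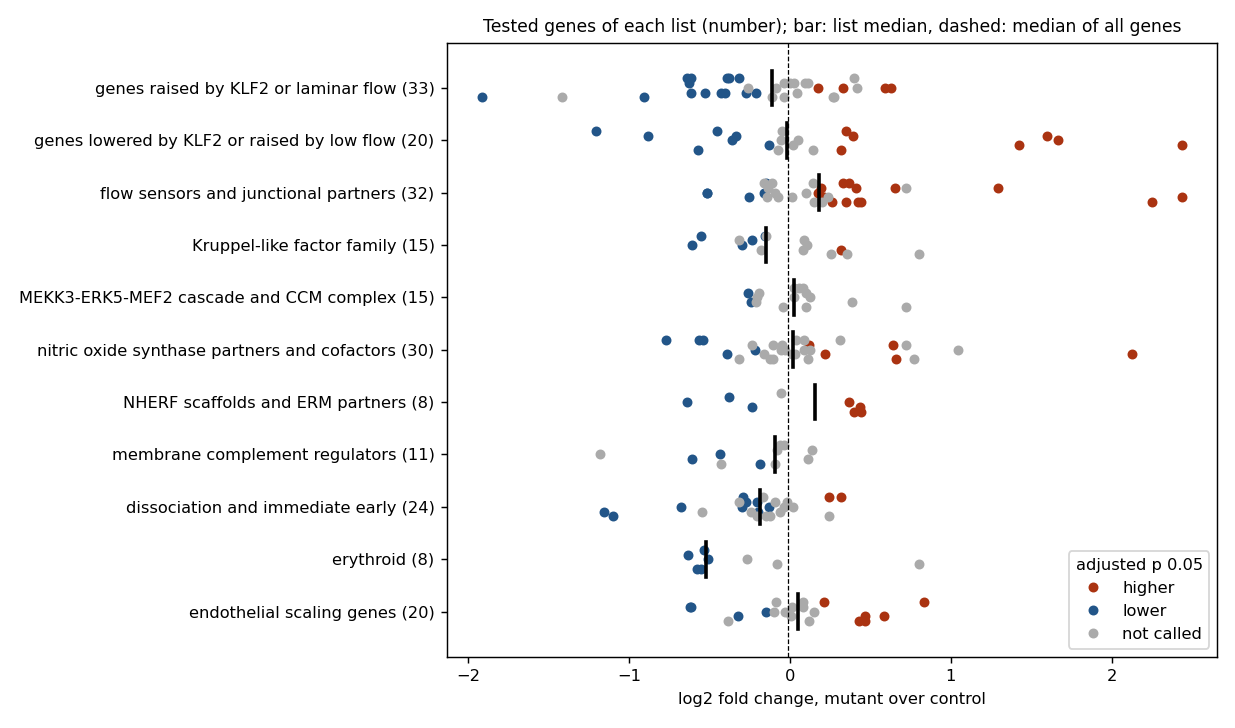
Log2 fold change of mutant over control for every tested gene of 11 lists (points; the number tested is in brackets), with the list median as a bar and the median of all genes as a dashed line. Flow-raised genes lie mostly left of the line (14 of 33 called lower), flow sensors mostly right of it (14 of 32 called higher), and dissociation and erythroid genes lie mostly to the left.

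Per exon length, the order of the 8 genes in control libraries was Pecam1 at 499 ± 10.1 TPM, Sema7a at 485 ± 14.0, Klf2 at 457 ± 4.19, Nos3 at 368 ± 15.5, Slc9a3r2 at 327 ± 11.5, Klf4 at 173 ± 4.29, Piezo1 at 81.6 ± 4.57 and Cd59a at 27.5 ± 3.27 TPM. Pecam1 and Sema7a overlapped between libraries, and no other neighbours in that order did. In the mutant the order was the same, at 672 ± 24.1 TPM for Pecam1, 530 ± 8.23 for Sema7a, 303 ± 5.16 for Klf2 and 284 ± 11.9 for Nos3. There Pecam1 and Sema7a were apart, and Klf2 and Nos3 were apart by less than 1 TPM at their edges, with 298 TPM as the lowest value of Klf2 and 297 TPM as the highest of Nos3. The lengths sum all exons of a gene, so a gene with many exons outside its main transcript has its TPM understated.

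The genes whose profile over the 6 libraries lay closest to each called member, by root mean square difference of centred log2 CPM among 11737 other genes with at least 5 CPM, had no shared theme that was tested. For Klf2 they were Ephx1, an epoxide hydrolase (difference 0.020), and the alpha globin gene Hba-a2 (0.022), whose log2 fold change of -0.63 is part of the fall of erythroid genes given above. For Klf4 they were Adal and Ctsk, a cathepsin, for Nos3 the amino acid transporter Slc38a2 (0.017) and Podxl (0.020), and for Slc9a3r2 the lipid transfer protein gene Pltp (0.016) and the transglutaminase gene Tgm2. Pecam1 was closest to Tpm4, a tropomyosin (0.0079), and to Pde8a, a phosphodiesterase. For a called member such a profile is mostly the shift between the groups, so close genes are largely those with a like log2 fold change.

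**Figure D5:**
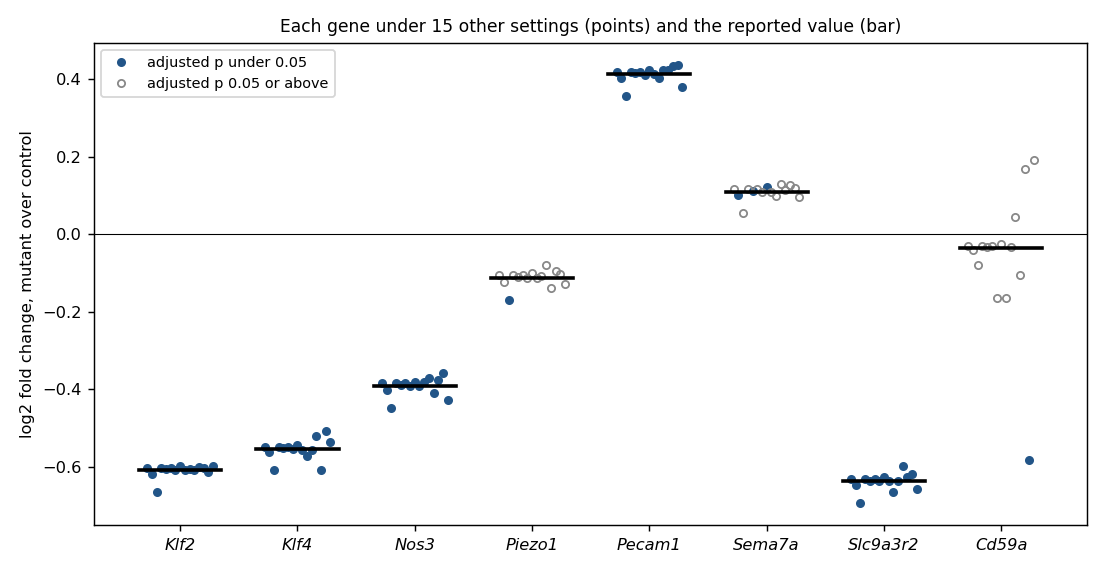
Log2 fold change of each of the 8 genes as reported (bar) and under 15 other settings (points; filled where the adjusted p was under 0.05). Klf2, Klf4, Nos3, Slc9a3r2 and Pecam1 were called under all 15, Piezo1 under 1 and Sema7a under 3, and Cd59a ranged from -0.58, its 1 call, to 0.19.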

How the data were processed

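StringTie 1.3.4, HISAT2, edgeR, FastQC 0.10.1 and cutadapt 1.10 are the tools of the authors per the submitters' processing notes, which list GRCm39 as build; roles, parameters and annotation are not given in the sources used here. Values in the deposited gene table are estimated counts, whole and not normalized, and, per the file headers, the authors' quality table holds the count of valid reads per library. Symbols, coordinates and exon lengths come from GENCODE M21 (GRCm38), whose identifiers matched all 55450 rows.

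Genes were kept with filterByExpr, scaled by TMM and tested in edgeR 4.0.16 (R 4.3.3) by quasi-likelihood F test with a robust fit and group as the only term, after a check on simulated counts. This test had been chosen with raw counts in mind and was kept, since the estimates are whole numbers. SE is the log2 fold change over the square root of F. CPM uses TMM scaling. TPM divides counts by exon length and rescales each library to the same total. Ratios of 2 genes were compared by exact permutation over libraries. Other settings used DESeq2 1.42.0, limma 3.58.1, other scalings, filters, a replicate term and each library left out. Genes named beside the 8 were fixed partners, the 3 lowest p of each list, near profiles and the most abundant marker of each other cell type, or are marked as chosen after their values were seen; antisense neighbours were added for their overlap. A listed gene is not reported here. The members and lists were chosen with earlier results of these data known.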

Additional observations from a re-analysis of the deposited data

How the results depend on the processing

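Klf2, Klf4, Nos3, Slc9a3r2 and Pecam1 kept their direction and call under all 15 alternatives, with log2 fold changes of -0.66 to -0.60, -0.61 to -0.51, -0.45 to -0.36, -0.69 to -0.60 and 0.36 to 0.44. Piezo1 was called with endothelial gene scaling (-0.17), and Sema7a with total count scaling (0.10), a filter of mean 5 CPM (0.11) and counts divided by 4 (0.12), while endothelial gene scaling left Sema7a at 0.053. With 1 library left out, Cd59a ranged from -0.58 to 0.19 and the log2 ratio of Klf2 to Klf4 from -0.11 to 0.0040; the cause was not tested. Directions of genes that were not called also reversed. With endothelial gene scaling these were Map3k3 (-0.029), Krit1 (-0.029) and Edn1 (-0.036). With 1 library left out they were Map3k3 (-0.0064 to 0.060), Krit1 (-0.033 to 0.070), Plxnc1 (-0.11 to 0.093) and Cd79a (-0.051 to 0.30), the most abundant lymphocyte marker. The cascade list had 2 genes called, against 0 with the replicate block, 4 with the filter of mean 5 CPM, 1 with RLE size factors or no filter, and 0 or 1 with a library left out. Of 82 other genes followed, 61 kept their side of the threshold under every alternative. All genes called numbered 2812, 1907 to 2395 with a library left out and 2059 with the replicate block. The replicate numbers did not pair the libraries: same-numbered deviations correlated at -0.023, 0.0097 and 0.023, and 3 of 6 libraries correlated best with their own number. The replicate block changed no call among the 8 genes. Cd59a had the lowest depth of the 8 genes, at about 215 to 556 read pairs per library. Its SE was 0.406 with all libraries and 0.108 without mutant replicate 2.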
